A study of Mus musculus with 65 samples.

Results

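The genes described here are the ligands, receptors and Fringe modifiers of the Notch pathway in mouse ventral spinal cord progenitors. They were chosen by name, as 10 of the 25239 genes of the expression table: the ligands Dll1, Dll3, Dll4, Jag1 and Jag2, the receptors Notch1, Notch2 and Notch3, and the Fringe genes Lfng and Mfng. All 10 passed the filter on low values, a mean of at least 10 normalised counts over the libraries, and so all were among the 13964 genes tested.

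HM1 mouse embryonic stem cells were differentiated to neuromesodermal progenitors (NMPs, day 3), the shared source of spinal cord and trunk mesoderm. The cultures then received 100 nM retinoic acid from day 3, together with 0, 10, 100 or 500 nM SAG, an agonist of the Sonic hedgehog transducer Smoothened. On days 4, 5 and 6 cells were fixed, stained for transcription factors and sorted, all from the SOX2+ gate, as p0-1, p2, pMN and p3 progenitors (from dorsal to ventral), and their RNA was sequenced in bulk. The p0-1 cells came from 0 and 10 nM SAG, the p2 cells from 10 and 100 nM, and the pMN and p3 cells from 100 and 500 nM, so that cell type and SAG concentration were only partly crossed. The NMP group (0 nM SAG) held 3 libraries, and days 4, 5 and 6 held 16, 24 and 22 libraries in 8 groups each, 65 libraries and 25 groups in all. All groups share the HM1 background, for which the labels name no engineered allele, and replicates are independent differentiations of that single line. Groups held 3 libraries, except 6 groups of 2 and 2 groups of 1 (p2 at 10 nM and p3 at 100 nM, both on day 4).

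Libraries held 7615114 to 13484815 reads assigned to genes. Markers of the sorted types had their highest mean in the type they label on days 5 and 6. Mean Nkx2-2 was 255 normalised counts in p3 and at most 15.8 in the other types, and mean Dbx1 was 2263 in p0-1. Mean Olig2 was 3574 in pMN, 823 in p3, 423 in p2 and 8.62 in p0-1. Olig2 RNA thus followed the sort less closely, as p3 cells were gated as OLIG2-negative and Olig2 was not called between p3 and pMN. The NMP libraries held T (mean 2407) and Nkx1-2 (1294), and of 6 mesoderm markers 3, Msgn1 and Meox1 among them, had no reads there. Hes7, a presomitic clock gene on that list, averaged 174 in NMPs and 4.24 on day 4 and was called lower (-5.99 ± 1.02 SE, adjusted p = 3.28e-05). A single library stands apart: the lone day 4 library of p3 cells from 100 nM SAG had the most reads and the fewest genes with a read (9718, where the next lowest had 10338), and Dll1, Dll3 and Jag2 were all at 0 in it. Calls with limma that were lost without it are named below, and other values that use day 4 include it unless stated.

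Notch signalling passes between neighbouring cells. Delta-type (Dll) and Jagged-type (Jag) ligands on a cell bind Notch receptors on the next, the receptor is cut, and its intracellular part enters the nucleus and acts with Rbpj to switch on Hes and Hey repressors, which hold the cell as a progenitor. In the developing spinal cord, progenitors that begin to differentiate show Delta ligands and thereby keep their neighbours undifferentiated, and Fringe enzymes add a sugar to the receptor that favours its response to Delta over Jagged ligands.

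In the mm10 annotation deposited with the data each of these genes is a single transcript. Dll1 lies at chr17:15367354-15375823, Dll3 at chr7:28293555-28301785, Dll4 at chr2:119325784-119335666, Jag1 at chr2:137081451-137116520 and Jag2 at chr12:112908590-112929495. The receptors lie at chr2:26457902-26503822 (Notch1), chr3:98013538-98150367 (Notch2) and chr17:32120820-32166890 (Notch3), and the Fringe genes at chr5:140607341-140615545 (Lfng) and chr15:78755883-78773445 (Mfng). Exons of Dll4 overlap those of Gm14207 on the other strand, and exons of Notch1 overlap those of 0610009E02Rik. Whether reads were counted by strand is not stated, so reads of these overlapping pairs may not be told apart.

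The 250 bases before the start site are shown for Dll1, Dll3 and Dll4, the Delta ligands called from day 4 to day 5, and for Jag1, whose order of means over the cell types was the opposite of that of Dll3. They come from RefSeq (build GRCm38.p6, the same start sites as the deposited annotation) and run 5′ to 3′ on the strand of the gene, with E-boxes (CANNTG, the motif bound by proneural bHLH factors) in capitals. The core TGGGAA that Rbpj binds was also searched on both strands, where capitals would mark it as well.
Dll1 (chr17:15375824-15376073, minus strand): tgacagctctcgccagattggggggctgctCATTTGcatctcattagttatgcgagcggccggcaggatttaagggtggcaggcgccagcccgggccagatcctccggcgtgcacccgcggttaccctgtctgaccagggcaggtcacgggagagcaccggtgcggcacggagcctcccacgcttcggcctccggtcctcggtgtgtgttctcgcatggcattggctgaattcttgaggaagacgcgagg
Dll3 (chr7:28301786-28302035, minus strand): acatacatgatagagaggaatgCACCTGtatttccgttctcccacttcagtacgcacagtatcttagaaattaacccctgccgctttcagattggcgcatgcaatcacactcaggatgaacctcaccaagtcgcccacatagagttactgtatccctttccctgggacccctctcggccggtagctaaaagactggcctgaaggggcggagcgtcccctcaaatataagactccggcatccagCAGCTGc
Dll4 (chr2:119325534-119325783, plus strand): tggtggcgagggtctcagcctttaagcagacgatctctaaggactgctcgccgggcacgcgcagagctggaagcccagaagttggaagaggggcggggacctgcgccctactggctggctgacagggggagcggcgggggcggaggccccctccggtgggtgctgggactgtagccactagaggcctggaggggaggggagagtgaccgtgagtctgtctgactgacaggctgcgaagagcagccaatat
Jag1 (chr2:137116521-137116770, minus strand): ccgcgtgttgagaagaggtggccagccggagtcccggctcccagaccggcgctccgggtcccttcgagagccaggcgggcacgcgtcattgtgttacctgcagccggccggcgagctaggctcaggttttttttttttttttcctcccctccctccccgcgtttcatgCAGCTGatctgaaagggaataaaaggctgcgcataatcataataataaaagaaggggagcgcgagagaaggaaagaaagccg
Dll3 held 2 E-boxes in this window, Dll1 and Jag1 held 1 each and Dll4 held 0. RefSeq also lists a Dll1 start site that the deposited annotation does not use, whose window (chr17:15376933-15377182, not shown) held 3 E-boxes. Of the 9 members with an entry at this start site, 4 held an E-box, the other being Lfng, against 66.2% of all 32851 promoters of the same length. The TGGGAA core was present in 1 member, Lfng, where 1 of its 2 copies overlaps an E-box, and in 21.6% of all promoters. These matches describe letters only, and the table had no entry for Mfng.

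The members spanned a wide range of levels and patterns. Levels were compared between genes per kb of exon, which assumes even coverage along each transcript. That was not tested, and the paper describes this RNA as scarce and of low quality. On this scale the mean over all 65 libraries was highest for Dll3 (780.3 normalised counts per kb) and Dll1 (465), followed by Jag1 (318) and Mfng (273). The receptors lay closer together, at 148 for Notch2, 126 for Notch1 and 113 for Notch3. Jag2 (89.6), Dll4 (64.3) and Lfng (33.9) were lowest. The heat map of group means shows Dll4 near 0 until day 4, Dll3 high, low and high again, Jag1 brightest in p0-1, and Notch2 brightest in p3.

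**Figure D1:**
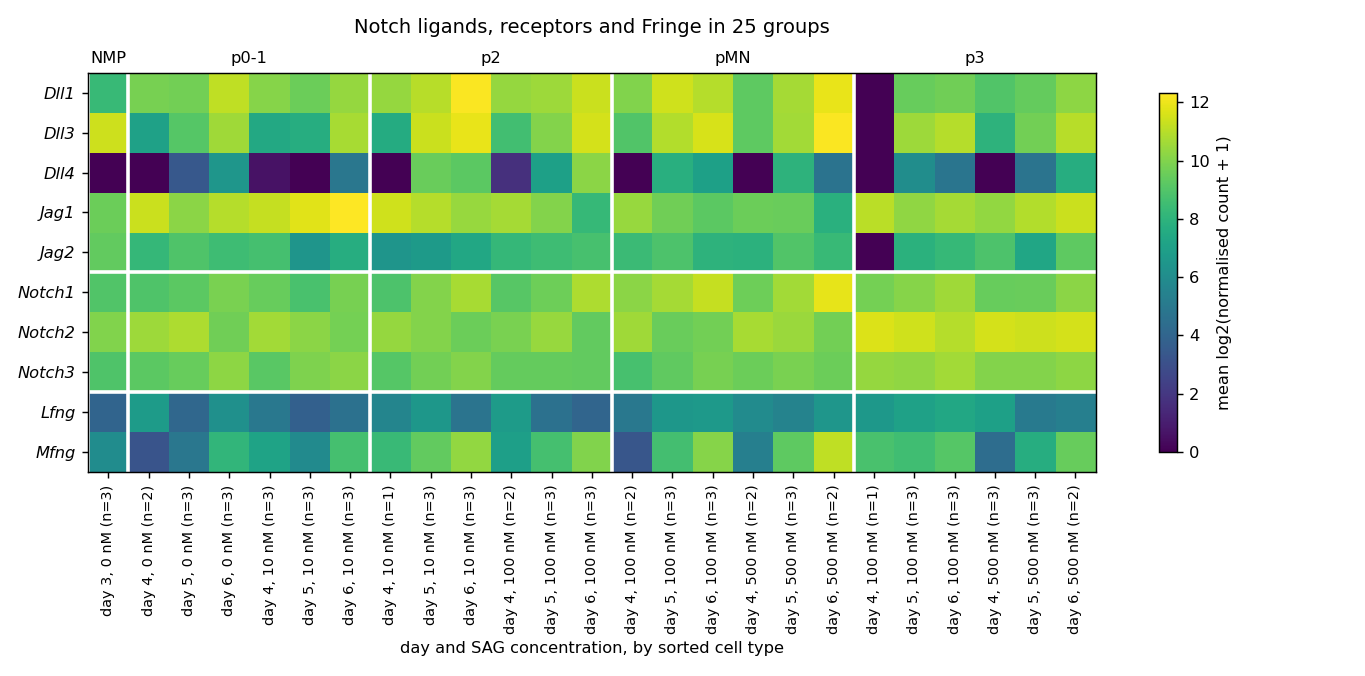
Mean log2(normalised count + 1) of the 10 genes (rows, grouped as ligands, receptors and Fringe) in each of the 25 groups (columns, ordered by cell type, SAG concentration and day, with the number of libraries). Dll4 is dark on days 3 and 4 in every cell type, and Dll1, Dll3 and Jag2 are at 0 in the single library of p3 at 100 nM on day 4.

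The first question was how the pathway changed as NMPs became neural. Dll3 was lower in every day 4 library than in any NMP library, and no other member was called with limma. Values were tested with limma on log2(normalised count + 1), with a separate mean per group and groups weighted equally. To be called, a gene had to reach a Benjamini-Hochberg adjusted p under 0.01 together with more than a 2-fold change. By that rule 3.49% of all tested genes were called from NMPs to day 4, and 1 of the 10 members. The median log2 change was 0.37 over the members and -0.40 over all tested genes. Levels are given below as the mean ± SD over libraries in normalised counts, and differences on the log2 scale with their standard error (SE). Dll3, a divergent Delta that is largely held inside the cell and is known for its part in somite segmentation, read 2271, 4668 and 1877 normalised counts in the NMP libraries. On day 4 it read 0 at the lowest, 334 at the median and 807 at the highest over 16 libraries. The groups did not overlap, and Dll3 fell by 4.29 ± 0.54 SE on the log2 scale (adjusted p = 3.95e-08), with 16 of 16 day 4 libraries under the NMP median. Without the day 4 p3 library in which it was at 0, it fell by 3.27 (adjusted p = 1.7e-05, within a range of 1.74e-15 to 0.00024 over all alternatives).

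The Jagged ligands and the receptors differed less at this step. Jag2, a Jagged-type ligand, was steady in the NMP libraries (661, 655 and 637) and averaged 340.3 ± 226 on day 4, a log2 difference of -2.26 ± 0.68 SE (adjusted p = 0.0315) that became -1.25 without the day 4 p3 library. The count tests on the recovered reads called this fall, with log2 differences of -2.52 by edgeR and -2.57 by DESeq2 (adjusted p = 0.00408 and 0.0016, in a range of 6.7e-05 to 0.432 over all alternatives). Jag1 averaged 826 ± 397 in NMPs and 1848 ± 868 on day 4, with the ranges overlapping (1.18 ± 0.50 SE, adjusted p = 0.186). Notch2 averaged 1028 ± 229 and 1949.8 ± 1098 (0.74 ± 0.33 SE, adjusted p = 0.214). Dll4 had 0 reads in all 3 NMP libraries and in 14 of the 16 day 4 libraries, with 11 and 2 reads in the others.

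Between day 4 and day 5 the Delta ligands Dll3 and Dll4 rose, and Dll1 was called higher through the day 4 library in which it was at 0. In all 3 of the 10 members were called, all higher, beside 4.3% of all genes, and the median log2 change was 0.63 over the members and 0.01 over all genes. Dll4, a Delta ligand best known from sprouting vessels and also made by early V2 interneuron precursors, switched on at this step. On day 4 its highest library read 9.97, and on day 5 it read 0 at the lowest, 142 at the median and 1354 at the highest, with 6 of 24 libraries still at 0. Its log2 change was 5.52 ± 0.81 SE (adjusted p = 2.04e-06), a value that depends on the pseudocount of 1 because most day 4 libraries were at 0. A count test with edgeR on the recovered reads did not call it (adjusted p = 1, the highest over all alternatives, whose lowest was 3.94e-17). The summed level of the endothelial markers Pecam1, Cdh5, Kdr, Tek and Tie1 ran from 0 to 512 on day 4 and from 0 to 314 on day 5. Of the 3 that passed the filter, 0 were called with limma (1 at an unadjusted p below 0.05), 0 with edgeR and 1 with DESeq2. The part of such cells in the Dll4 level was not tested.

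Dll3 recovered from its day 4 level. It read 38.2 at the lowest, 1123 at the median and 4987 at the highest on day 5 and was above the day 4 median in 22 of 24 libraries, although the ranges overlapped (2.86 ± 0.29 SE, adjusted p = 1.52e-10). Without the day 4 p3 library the log2 change was 1.85 (adjusted p = 8.28e-06, the highest over all alternatives). Dll1, the main Delta ligand of neuronal precursors, read 0 at the lowest, 881 at the median and 1411 at the highest on day 4 and 341 at the lowest, 1402 at the median and 3093 at the highest on day 5 (1.60 ± 0.21 SE, adjusted p = 2.42e-07). Its call rested on the library at 0: without it the change was 0.37 (adjusted p = 0.34, in a range from 3.6e-09), the number of members called was 2, and the number called among all genes fell from 601 to 339. Jag2 changed by 0.86 (adjusted p = 0.117) with that library and by -0.15 without it, and edgeR and DESeq2, run with that library, called it higher (log2 changes 1.53 and 1.51).

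Mfng, of which 3 of 16 day 4 libraries had 0 reads, averaged 134 ± 127 on day 4 and 392 ± 307 on day 5 and missed the threshold (1.94 ± 0.61 SE, adjusted p = 0.0267). It passed when any of 5 libraries was left out (p0-1 at 0 nM replicate 2, p2 at 10 nM replicate 3, pMN at 100 nM replicate 2 and pMN at 500 nM replicate 3 on day 4, and p0-1 at 0 nM replicate 2 on day 5), with a log2 change of 2.25 to 2.35. For Mfng the adjusted p ran from 0.00309 to 0.0977 over all alternatives, the highest with edgeR. Jag1, Notch1, Notch2, Notch3 and Lfng were not called, with log2 changes of -0.33, 0.39, -0.21, 0.29 and -0.67.

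From day 5 to day 6 Dll3 rose further, the 1 of 10 members called, beside 0.852% of all genes. Dll3 reached 1105 at the lowest, 2158 at the median and 7337 at the highest on day 6, above the day 5 median in 21 of 22 libraries (1.32 ± 0.25 SE, adjusted p = 0.000564). Notch1, the receptor most linked to neural progenitor maintenance, went from 1040.5 ± 532 to 1794 ± 1187. Its adjusted p passed (0.00253) but its log2 change of 0.81 ± 0.17 SE was under 2-fold. Dll1 went from 1426 ± 844 to 2471 ± 1523 (0.77 ± 0.19 SE, adjusted p = 0.01), and Mfng averaged 945 ± 626 on day 6 (1.73 ± 0.54 SE, adjusted p = 0.0544). Notch2 went the other way, from 1698 ± 1065 to 1184 ± 832 (-0.49 ± 0.16 SE, adjusted p = 0.06).

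Markers of neurons and of progenitors committed to them moved over the same days. The summed level of 8 newborn neuron markers ran from 222 to 1241 on day 4, 203 to 2729.8 on day 5 and 1445 to 7797 on day 6, and that of 5 neurogenic progenitor markers from 429 to 3574, 806 to 10556 and 3176 to 17705. From day 4 to day 5 4 of the 8 neuron markers rose (Dcx, Elavl3, Elavl4 and Nhlh1) and 1 fell (Stmn2), of which Dcx and Elavl3 did not pass without the day 4 p3 library, and 2 of the 5 neurogenic markers rose (Gadd45g and Neurog1). From day 5 to day 6 Dcx, Elavl3 and Nhlh2 rose among the neuron markers and Neurog1 among the neurogenic ones. Of the neuron markers Nhlh2 had no reads in any day 4 library. The part of such cells in the rise of the Delta ligands was not tested, and in bulk libraries fewer cells of a type and less RNA per cell cannot be told apart. The 3 day comparisons share libraries with each other.

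**Figure D2:**
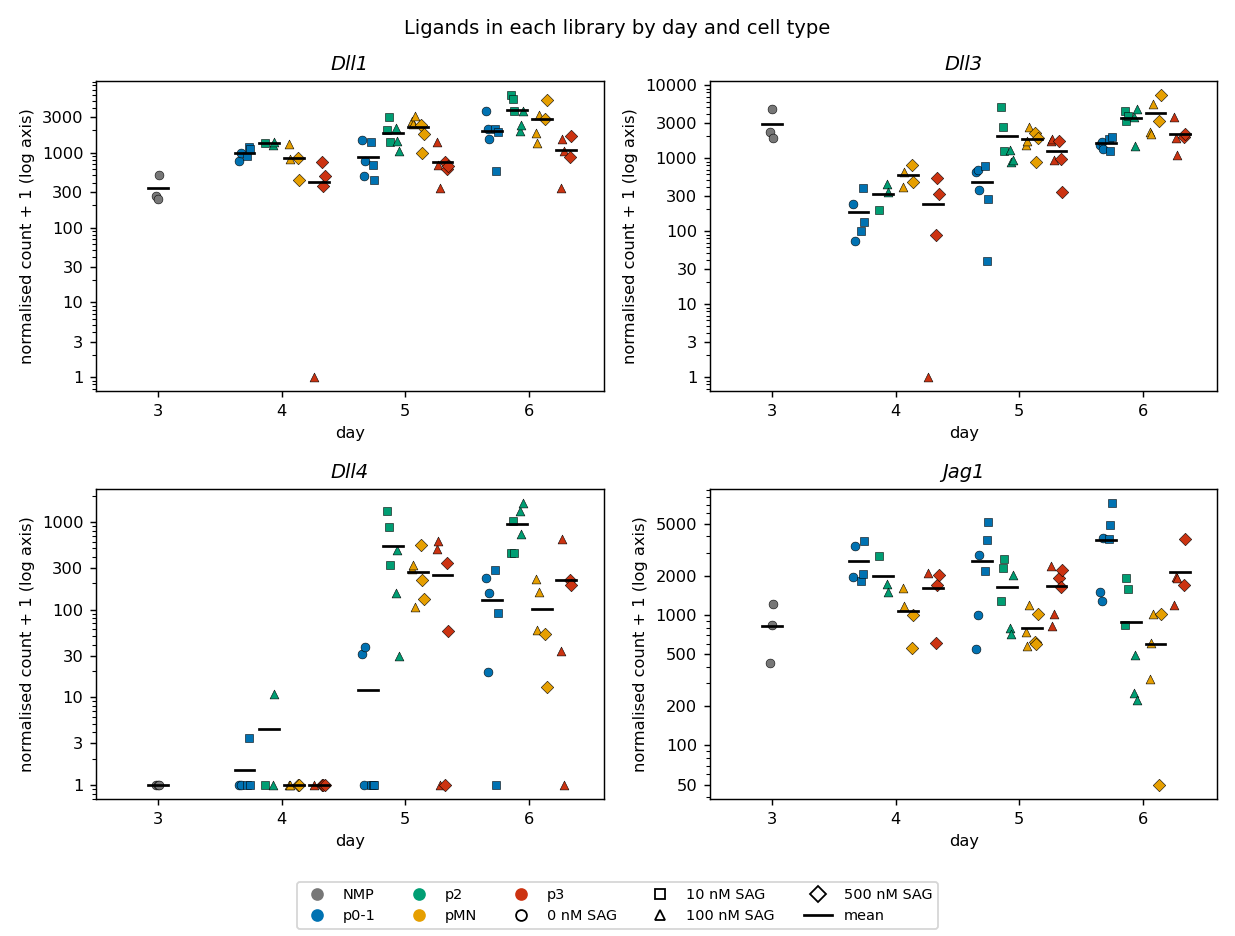
Normalised counts plus 1 (log axis) of Dll1, Dll3, Dll4 and Jag1 in each library by day, coloured by cell type and shaped by SAG concentration, with a bar at the mean of each cell type and day. Dll4 lies at the bottom of the axis on days 3 and 4 and spreads up to 1646 on day 6, and Dll3 dips on day 4. The Jag1 libraries of p0-1 lie above those of pMN on days 4 and 6 and overlap them on day 5.

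The second question was how the progenitor types differed on days 5 and 6. The p3 cells, the most ventral type sorted, held more Notch2 than every other type and less Dll1 than pMN and p2. Notch2, a receptor related to Notch1, read 1549 at the lowest, 2216 at the median and 5657 at the highest over the 11 p3 libraries and 589.8 at the lowest, 793 at the median and 2108 at the highest over the 11 pMN libraries. Its means, over 11 libraries each of p3 and pMN and 12 each of p2 and p0-1, were 2719 ± 1186 in p3, 1175 ± 434 in p0-1, 1004 ± 476 in pMN and 981 ± 402 in p2. The log2 difference was called each time, against pMN (1.48 ± 0.23 SE, adjusted p = 2.55e-05), p2 (1.49 ± 0.22 SE, adjusted p = 6.36e-06) and p0-1 (1.23 ± 0.22 SE, adjusted p = 0.00018). With day 5 alone the Notch2 calls against p2 and p0-1 were lost (adjusted p = 0.0543 and 0.13). With day 6 alone the call against pMN was lost (adjusted p = 0.0135). All 11 p3 libraries lay above the median of each other type, while the extremes overlapped. On day 4 the 4 p3 libraries averaged 3045 ± 431, and 11 of the 12 libraries of the other types read at most 1969, while replicate 1 of p0-1 at 10 nM read 4567, above every p3 library. The 3 other types did not pass against each other, with intervals of the log2 difference (95%) of -0.43 to 0.45 for pMN and p2, -0.70 to 0.19 for pMN and p0-1 and -0.69 to 0.16 for p2 and p0-1.

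Dll1 had the reverse order. It averaged 905 ± 457 in p3, 1425 ± 937 in p0-1, 2516 ± 1099 in pMN and 2822 ± 1533 in p2. All 11 p3 libraries lay below the pMN median of 2464 and the p2 median of 2242, and the p3 range of 339 to 1684 overlapped the others at its upper end. Both differences were called (pMN, -1.54 ± 0.27 SE, adjusted p = 0.000377, and p2, -1.58 ± 0.27 SE, adjusted p = 9.78e-05), while p3 and p0-1 did not differ beyond the threshold (-0.50 ± 0.27 SE, adjusted p = 0.362) and neither did pMN and p2 (-0.04 ± 0.27 SE, adjusted p = 0.979). The p0-1 cells lay between, 1.04 below pMN on the log2 scale (adjusted p = 0.0201). This passed when replicate 1 of p0-1 on day 5 was left out, at either 0 nM (log2 difference 1.15) or 10 nM (1.16). Over all alternatives its adjusted p ran from 0.00339 to 0.71, the highest with day 6 alone.

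Between p3 and pMN 3 of 10 members were called (Notch2 and Jag1 higher in p3, Dll1 lower), beside 0.695% of all genes. Between p3 and p2 2 were called (Notch2 higher, Dll1 lower), beside 1.27%, and between p3 and p0-1 1 (Notch2 higher), beside 1.43%. Notch3 had the same direction as Notch2 in p3, where all 11 libraries lay above the medians of pMN and p2, at 1286 ± 312 against 852 ± 285 and 834 ± 343, but was not called (0.65 ± 0.22 SE, adjusted p = 0.166, and 0.67 ± 0.21 SE, adjusted p = 0.0649). Notch1 was lower in p3 than in pMN (-1.02 ± 0.25 SE, adjusted p = 0.021) and missed the threshold. Its adjusted p ran from 0.000867 to 0.451 over all alternatives, the highest with day 5 alone. It passed when the day 5 100 nM p3 replicate 2 was left out (log2 difference -1.14) or the day 6 500 nM pMN replicate 1 (-1.18).

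Floor plate and neurogenic markers differed along with these genes. Summed floor plate markers ran from 3189.5 to 21324 in p3 and at most 3733 in any library of the other types, and 3 of the 4 (Foxa2, Ntn1 and Shh) were higher in p3 than in pMN. Summed neurogenic progenitor markers ran from 1915 to 6987 in p3 and 6025 to 17705 in pMN, and 2 of the 5 (Gadd45g and Neurog2) were lower in p3. The part of either in the Notch2 and Dll1 differences was not tested.

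Jag1, the Jagged ligand known for stripes along the dorsoventral axis of the spinal cord, separated p0-1 from pMN most. It averaged 3172 ± 1982 in p0-1, 1866 ± 806 in p3, 1254 ± 827 in p2 and 703 ± 337 in pMN, the highest and lowest levels thus lying in types that are not neighbours. The p0-1 mean pooled 1854 at 0 nM and 4489 at 10 nM SAG. Neither pMN nor p3 shares a SAG concentration with p0-1, so type and concentration cannot be told apart in their differences from p0-1. The pMN libraries read 48.7 at the lowest, 614 at the median and 1183 at the highest, and all 11 lay below the p0-1 median of 3304 (-2.27 ± 0.33 SE, adjusted p = 5.8e-06). Jag1 was also higher in p3 than in pMN (1.76 ± 0.34 SE, adjusted p = 0.00131), a call lost on leaving out the day 6 500 nM p3 replicate 3 (log2 difference 1.62) or the day 6 500 nM pMN replicate 1 (1.22), whose Jag1 level was the lowest of all (48.7). It was also lost with edgeR (1.46), with the compared groups alone and with day 5 alone (1.03), the adjusted p running from 2.25e-06 to 0.551 over all alternatives. The p2 cells had less than p0-1 in all 12 libraries against the p0-1 median, without passing (-1.39 ± 0.32 SE, adjusted p = 0.0191). They passed without replicate 1 of p0-1 at 0 nM on day 5 (-1.53). At 10 nM SAG alone, which both types share, the difference was -1.36 (adjusted p = 0.705). Over all alternatives it ran from -2.30 to -0.48. Neither p0-1 and p3 (-0.50 ± 0.33 SE, adjusted p = 0.492) nor p3 and p2 (0.89 ± 0.33 SE, adjusted p = 0.127) differed beyond the threshold.

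The pMN cells, the progenitors of motor neurons, held the most Notch1 and, with p2, the most Dll3 and Mfng. Against p0-1 3 of 10 members were called, Notch1 and Dll3 higher and Jag1 lower, beside 0.96% of all genes. Notch1 read 1279 at the lowest, 1706 at the median and 5883 at the highest in pMN and 299 at the lowest, 727 at the median and 1468 at the highest in p0-1, and each pMN library lay above the p0-1 median (1.68 ± 0.24 SE, adjusted p = 5.41e-06). Its order was pMN (2328 ± 1381), p2 (1392 ± 636), p3 (1197 ± 532) and p0-1 (746 ± 331), and no neighbours in that order passed. Dll3 averaged 2868 ± 1905 in pMN, 2785 ± 1555 in p2, 1665 ± 855 in p3 and 1036 ± 654 in p0-1 (pMN against p0-1, 1.83 ± 0.35 SE, adjusted p = 0.000835). Neuronal markers moved with this comparison: the neuron markers Elavl4 (2.70 ± 0.49 SE, adjusted p = 0.00027) and Nhlh1 (3.68 ± 0.84 SE, adjusted p = 0.00641) and the neurogenic markers Gadd45g (1.71 ± 0.23 SE, adjusted p = 6.02e-07) and Neurog2 (4.14 ± 0.65 SE, adjusted p = 2.17e-05) were higher in pMN, 2 of 8 and 2 of 5 of their lists. Summed neurogenic markers ran from 6025 to 17705 in pMN and 806 to 5759 in p0-1, and summed neuron markers from 1165 to 7797 and 203 to 2693. Their part in the differences was not tested.

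Mfng, the higher in RNA of the 2 Fringe genes described here, averaged 1027 ± 756 in pMN, 879 ± 424 in p2, 505 ± 351 in p3 and 235 ± 211 in p0-1. Rfng, another Fringe gene, was counted among the genes of cutting and activation, and its level was not compared. All 11 pMN and all 12 p2 libraries exceeded the p0-1 median of 159, but the differences did not pass (pMN, 2.89 ± 0.76 SE, adjusted p = 0.0259, and p2, 2.70 ± 0.74 SE, adjusted p = 0.0817). With a pseudocount of 10 in place of 1 both passed (log2 differences 2.54 and 2.35), and 1 p0-1 library had 0 reads. Over all alternatives the adjusted p ran from 0.000554 to 0.612 for pMN and from 0.00152 to 0.912 for p2. Lfng, the Fringe gene of the somite clock, stayed low and scattered, at 117 ± 117 in p3, 108 ± 82.8 in pMN, 46.8 ± 44.1 in p2 and 37 ± 48.2 in p0-1, and was not called in any comparison on the values as deposited. It was called higher in pMN than in p0-1 with DESeq2 (log2 difference 1.93) and higher on day 4 than in NMPs with quantile normalisation (4.83). Between cell types Jag2 was not called either, with means of 304 to 417 in the 4 types.

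**Figure D3:**
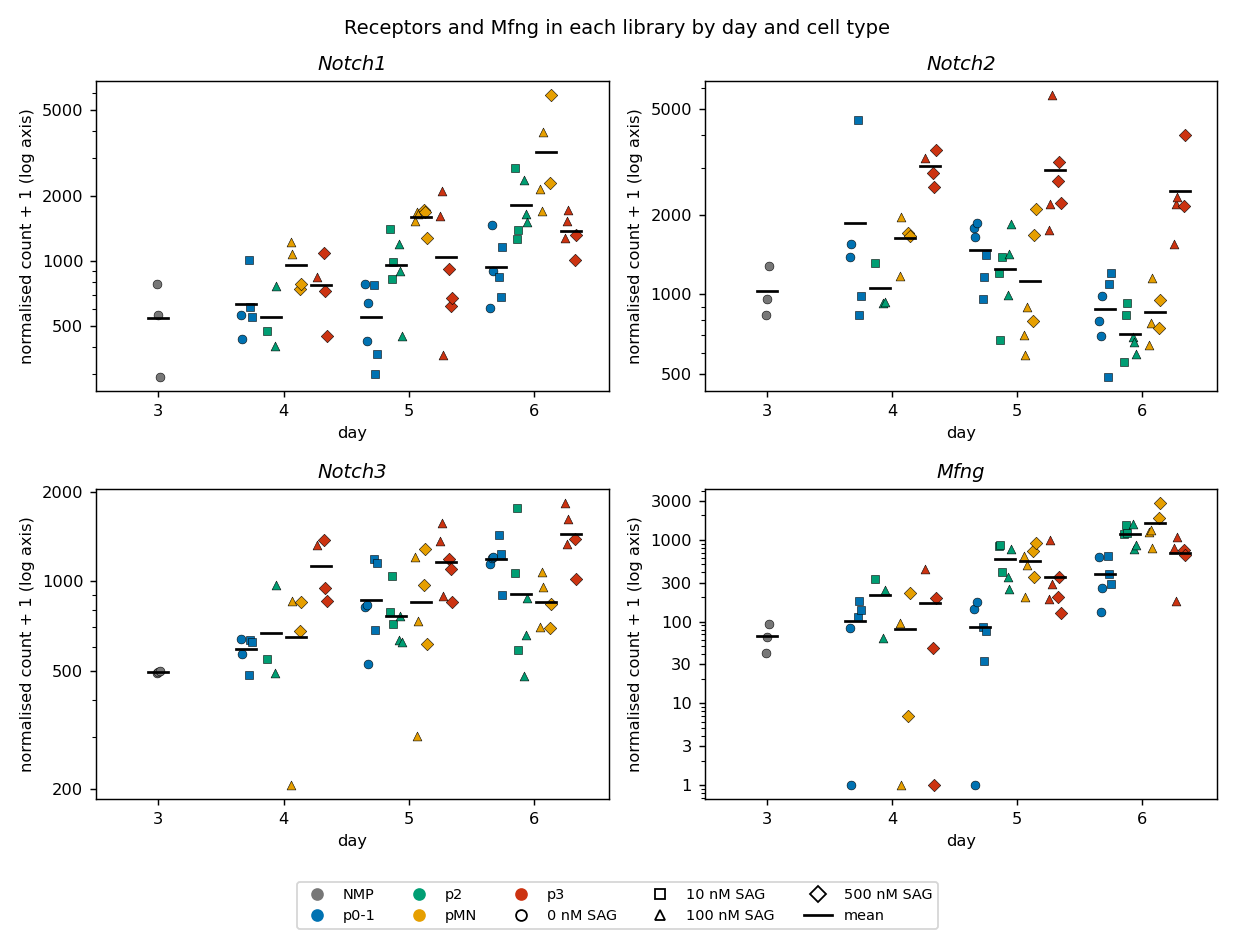
Normalised counts plus 1 (log axis) of Notch1, Notch2, Notch3 and Mfng in each library by day, coloured by cell type and shaped by SAG concentration, with a bar at the mean of each cell type and day. The p3 libraries hold the highest Notch2 means on every day, and Notch1 and Mfng rise most in pMN and p2.

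The p2 cells, which give rise to V2 interneurons, held the most Dll4. Between p2 and p0-1 2 of 10 members were called, Dll4 and Dll3, both higher in p2, beside 0.322% of all genes. Dll4 read 28.4 at the lowest, 603 at the median and 1646 at the highest over the 12 p2 libraries, none of which was at 0, and 0 at the lowest, 24.3 at the median and 285 at the highest over the 12 p0-1 libraries, 5 of which were at 0. Every p2 library lay above the p0-1 median (5.29 ± 0.98 SE, adjusted p = 0.00122). With edgeR on the recovered reads the adjusted p was 0.0102, over the threshold, in a range of 1.23e-06 to 0.272 over all alternatives. In p3 it averaged 235 ± 250.1, with 3 libraries at 0, and in pMN 193 ± 154, and neither differed from p2 beyond the threshold (p3, -3.15 ± 1.01 SE, adjusted p = 0.0636, and pMN, -2.12 ± 1.01 SE, adjusted p = 0.438), although all 11 pMN libraries lay below the p2 median of 603. Of the neurogenic markers 1 of 5 was also higher in p2 than in p0-1, Gadd45g (1.30 ± 0.22 SE, adjusted p = 0.000235), and 0 of 8 neuron markers were called. The summed neurogenic markers ran from 4014 to 10556 in p2 and 806 to 5759 in p0-1, with a median log2 difference of 1.76, and that of the neuron markers was 1.60, against -0.05 over all genes. Their part in the Dll3 and Dll4 differences was not tested.

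At 10 nM SAG, the concentration that p2 and p0-1 share, Dll4 did not overlap. On day 5 the p2 libraries read 1354, 879 and 323 and all 3 p0-1 libraries had 0 reads, and on day 6 the p2 libraries read 444, 1035 and 439.6 and the p0-1 libraries 285, 0 and 89.9. At this single concentration all 6 p2 libraries lay above the p0-1 median for the 3 Delta genes, and none passed the threshold. The log2 differences were 6.91 for Dll4, 2.41 for Dll3 and 1.67 for Dll1, with adjusted p of 0.0149, 0.0149 and 0.0394. Dll3 was the least firm of the calls between cell types. It was lost when any of 11 libraries was left out: p0-1 at 0 nM replicate 3 on day 5 and replicates 1 and 3 on day 6, p0-1 at 10 nM replicate 2 on both days, p2 at 10 nM replicate 1 on day 5 and replicates 1 and 3 on day 6, and p2 at 100 nM replicate 1 on day 5 and replicates 1 and 3 on day 6. Its log2 difference was then 1.38 to 1.68, against 1.68 with all libraries (adjusted p = 0.005).

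Between pMN and p2 0 of 10 members were called with limma, edgeR or DESeq2, beside 0.107% of all genes, and 4 had an unadjusted p below 0.05, beside 10.6% of all genes. Jag1 was 0.87 lower in pMN on the log2 scale (adjusted p = 0.282), but at 100 nM SAG, which both types share, the sign turned (log2 difference 0.28, where on the linear scale p2 averaged 747 ± 659.6 and pMN 741 ± 312). Notch1 was 0.79 higher in pMN, and 0.74 at 100 nM alone. At that concentration Notch2 was called between p3 and p2 (1.32 ± 0.30 SE, adjusted p = 0.00854) and Dll1 was not (-1.37 ± 0.36 SE, adjusted p = 0.0265).

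**Figure D4:**
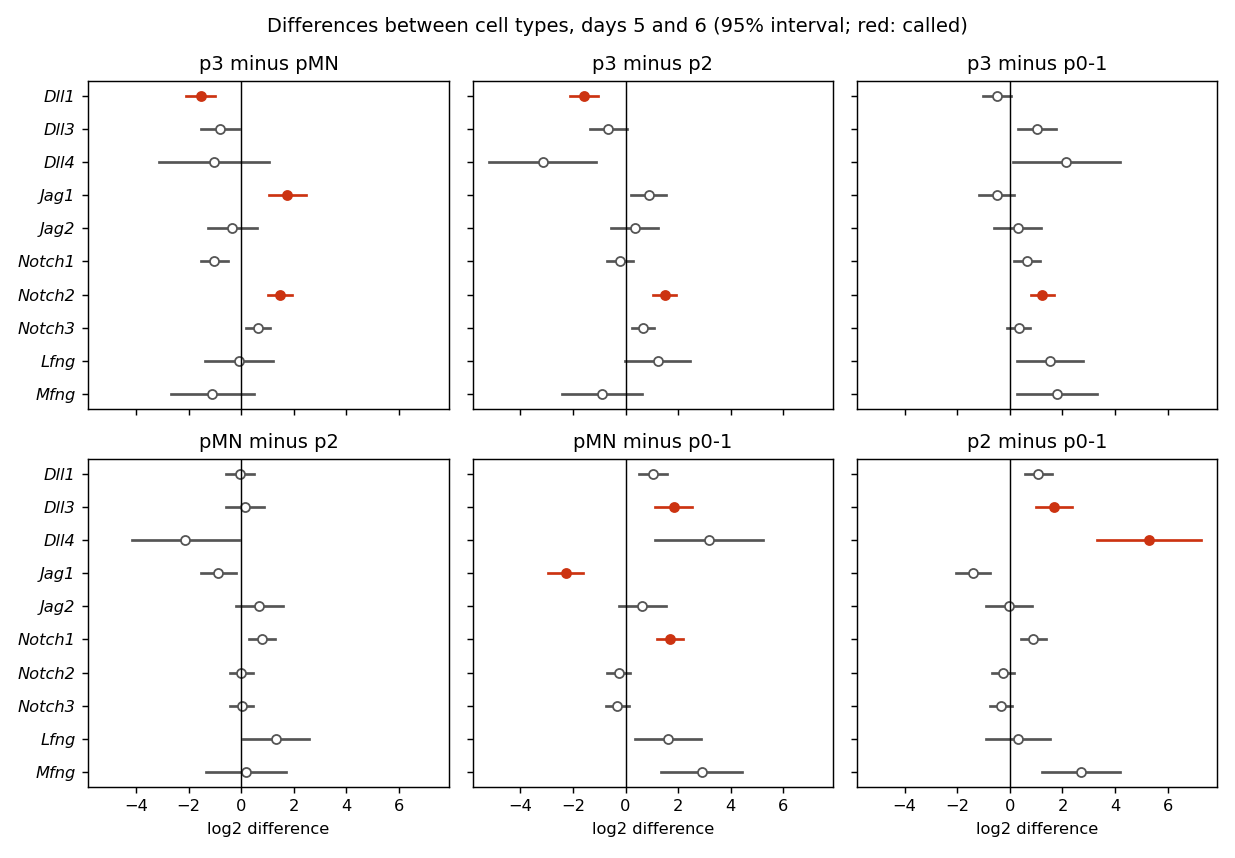
Log2 difference (first type minus second) of each gene between cell types over days 5 and 6, with its 95% interval, for the 6 pairs of types. Called genes are red: Dll1, Jag1 and Notch2 in comparisons with p3, Notch1, Dll3 and Jag1 between pMN and p0-1, and Dll3 and Dll4 between p2 and p0-1.

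The Jag1 difference was also looked at by day. On day 4 the p0-1 libraries read 1821 at the lowest and the pMN libraries 1595 at the highest. On day 5 the lowest p0-1 library read 551, under every pMN library. Jag1 differed between pMN and p0-1 by -1.41 on day 5, where it was not called (adjusted p = 0.191, in a range from 1.39e-09), against -2.27 over both days. The day 5 pMN libraries read 733, 580.1 and 1183 at 100 nM and 614, 602 and 1014 at 500 nM, and the day 6 libraries read 324, 612 and 1012 and 48.7 and 1016. In p0-1 at 10 nM Jag1 read 2182, 3715 and 5128 on day 5 and 3839, 4889.8 and 7181 on day 6, the highest group of all. The difference between the days was not tested for this pair.

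The third question was whether the same cell type differed between the SAG concentrations it was sorted from. With limma 0 of 10 members were called in p0-1 (10 against 0 nM, beside 0.0143% of all genes), p2 (100 against 10 nM, 0.0358%), pMN (500 against 100 nM, 0%) and p3 (500 against 100 nM, 0.0286%), where 2, 2, 0 and 1 members had an unadjusted p below 0.05, beside 4.88%, 8.18%, 4.7% and 11.7% of all genes. Count tests on the recovered reads called 0 with edgeR in all 4 and 1 with DESeq2, Jag1 in p2. Jag1 averaged 4489 ± 1683 in p0-1 at 10 nM and 1854 ± 1281 at 0 nM, and all 6 libraries at 10 nM lay above the 0 nM median (1.48 ± 0.46 SE, adjusted p = 0.559). In p2 it averaged 747 ± 659.6 at 100 nM and 1760.4 ± 674 at 10 nM (-1.54 ± 0.46 SE, adjusted p = 0.241). Jag2 had the opposite sign in both, -1.66 in p0-1 and 1.53 in p2. In p3 the Lfng libraries did not overlap, at 24.9 to 41 at 500 nM and 47.5 to 338 at 100 nM, but the difference did not pass (-2.06 ± 0.91 SE, adjusted p = 0.369).

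Whether the change from day 4 to days 5 and 6 differed between cell types was tested over all 4 types at once. Dll1, Dll3 and Jag2 passed (adjusted p = 9.66e-09, 3.6e-05 and 0.0066), beside 3.41% of all genes. These are the 3 members at 0 in the day 4 library of p3 at 100 nM. Without that library 0 of 10 members passed and 5 of all genes did, against 476 with it. The other day 4 p3 libraries, at 500 nM, read 755, 362 and 491 for Dll1, 87.1, 536 and 326 for Dll3 and 690.2, 279 and 533 for Jag2, well above 0.

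The make-up of the ligands and receptors shifted with these changes. Counted per kb of exon, Dll3 made up 76.9% of the summed ligand means in NMPs, 9.03% to 34.2% in the day 4 types and 35.1% to 64.5% on day 6. Jag1 made up 49.3% in p0-1 on day 4 and 32.5% on day 6, while in pMN it went from 24.9% to 3.71% and in p2 from 37.9% to 4.9%. Among the receptors Notch1 made up 64.3% in pMN and 51.6% in p2 on day 6, Notch2 41.9% in p3, and Notch3 44.6% in p0-1. Mfng made up 86.4% to 98.3% of the sum with Lfng on day 6. These shares are descriptions of means with no test, and they too assume even coverage along each transcript.

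**Figure D5:**
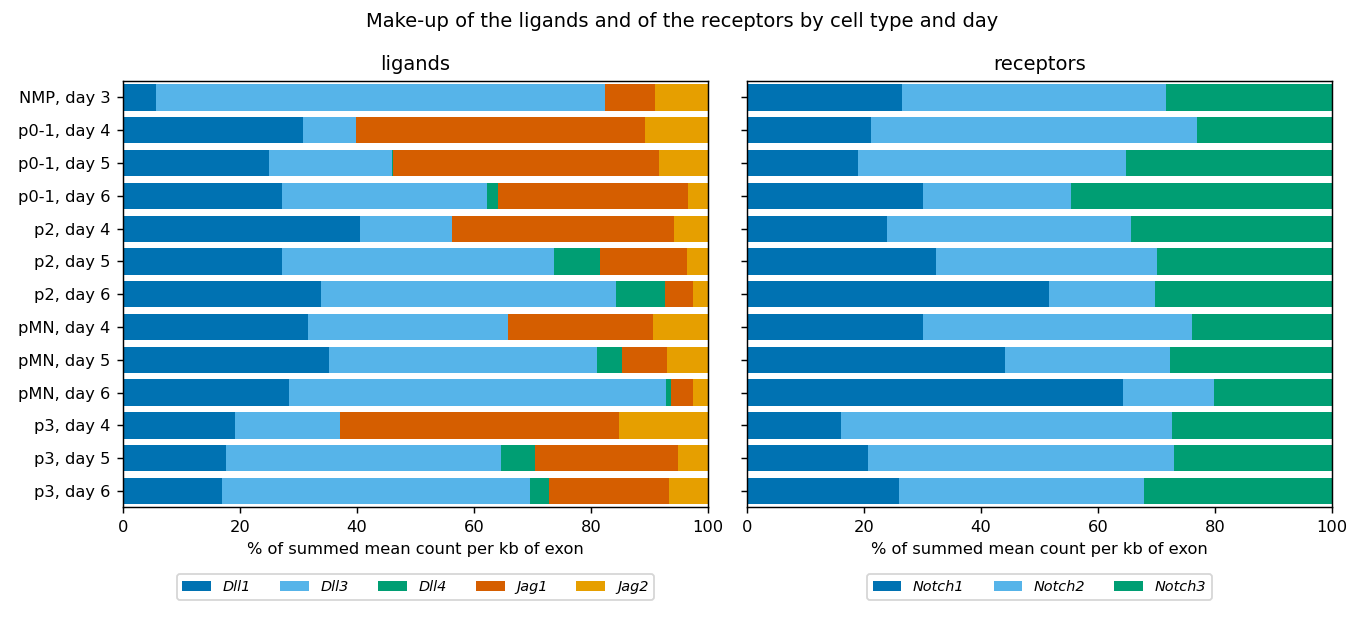
Share of each gene in the summed mean normalised count per kb of exon, for the 5 ligands (left) and the 3 receptors (right), by cell type and day. On day 6 the largest ligand share is Dll3 in all 4 cell types, from 35.1% to 64.5%, and the largest receptor share is Notch1 in pMN and p2, Notch2 in p3 and Notch3 in p0-1.

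Among the other genes of the pathway most calls lay among the genes listed as targets. Whether Notch signalling drove each listed gene here was not tested, and Hes6 is on that list as an opponent of Hes1. Of the 7 listed genes, 2 were called from NMPs to day 4: Hes5, the main Notch effector of neural progenitors, rose from a mean of 15.7 to 4449 (7.96 ± 0.30 SE, adjusted p = 1.31e-26), and Hes6 fell (-1.58 ± 0.33 SE, adjusted p = 0.000746). From day 4 to day 5 3 of 7 rose, Hes6 (1.12 ± 0.17 SE, adjusted p = 5.01e-06), Hey1 (4.09 ± 0.81 SE, adjusted p = 0.000264) and Nrarp (3.08 ± 0.80 SE, adjusted p = 0.00625), the last a feedback inhibitor of Notch. Without the day 4 p3 library Nrarp did not pass (log2 change 2.61), and the other called genes of the list still did. In p3 Hes5 was lower than in pMN (-1.31 ± 0.20 SE, adjusted p = 3.22e-05) and p2 (-1.31 ± 0.20 SE, adjusted p = 1.18e-05), averaging 4148 and 9141 in p3 and p2, while Hes1 was higher in p3 than in p2 (1.47 ± 0.30 SE, adjusted p = 0.00204) and p0-1 (1.50 ± 0.30 SE, adjusted p = 0.00113). Hey1 was also higher in p3 than in p0-1, at means of 673 and 61.9. Between p2 and p0-1 1 gene of the list was called, Hes6, higher in p2 (1.13 ± 0.21 SE, adjusted p = 0.00122).

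Of the 13 genes of cutting and activation, 1 was called in the whole set of comparisons (Aph1c, a part of gamma-secretase, lower on day 4 than in NMPs, -5.02 ± 1.25 SE, adjusted p = 0.00655), and without the day 4 p3 library it did not pass (log2 change -4.82). Of 11 trafficking genes 1 was called (Dtx4, a ubiquitin ligase, higher on day 5 than on day 4, 1.02 ± 0.26 SE, adjusted p = 0.00499), and of 9 nuclear genes, Rbpj among them, 0 were called. Neither count test called the Aph1c change. Of 5 other receptor and ligand-like genes, 4 passed the filter, and 2 were called, Dlk1 from day 4 to day 5 (2.80 ± 0.58 SE, adjusted p = 0.000459) and Dner from day 5 to day 6 (2.92 ± 0.68 SE, adjusted p = 0.00617). Over the 13 comparisons of levels the calls by limma, edgeR and DESeq2 were 11, 9 and 20 for targets, 1, 0 and 1 for cutting and activation, 1, 1 and 10 for trafficking, and 2, 2 and 8 for the receptor and ligand-like genes. For the 9 nuclear genes all 3 tools called 0. Over the 13 comparisons they had 12 limma results at an unadjusted p below 0.05, where 4.7% to 24.5% of all genes had such a p in a single comparison.

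Genes whose pattern over the 25 group means was most like a member were named by the 3 highest Pearson r, as a description without a test, since the groups share the same succession of days. For Dll4, without the group of the day 4 p3 library, they were Gadd45g (0.86), Mir124a-1hg (0.85) and Neurog1 (0.85), Neurog1 being a proneural factor. For Dll3 they were Gadd45g (0.96), Frmd4b (0.93) and Zswim4 (0.93), and without that group Hes6 (0.91), Gadd45g (0.88) and Elavl3 (0.87). For Dll1 they were Glis2 (0.96), Zbtb18 (0.96) and Zc3h12c (0.95), and Zc3h12c (0.83), Prmt8 (0.83) and Zbtb18 (0.82) without that group. Jag2, at 0 in that group, had Pcif1 (0.94), Trp53bp2 (0.93) and Pomgnt2 (0.93) with it and Tm9sf4 (0.72), Ern1 (0.71) and Rnasek (0.68) without it.

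For the receptors the most alike genes over all 25 groups were Map1b (0.89), Tmsb4x (0.87) and 4732490B19Rik (0.86) for Notch1. They were Pald1 (0.83), Ddb1 (0.80) and Rcn3 (0.80) for Notch2 and Pard3b (0.81), Fbxl7 (0.79) and Plekha5 (0.78) for Notch3. Without the day 4 p3 group they were Tmsb4x (0.90), Map1b (0.89) and Frmd4b (0.86) for Notch1. For Notch2 they were then Hes1 (0.79), on the list of targets, Pald1 (0.79) and Col4a1 (0.78). For Notch3 they were then Evl (0.82), Pbx2 (0.81) and Pard3b (0.80). Mfng was closest to Srgap3 (0.88), Nhs (0.84) and Setbp1 (0.84), and without the day 4 p3 group the Notch target Nrarp entered its 3 most alike genes (0.88). Over all 25 groups Jag1 and Lfng had the least alike neighbours, 9530082P21Rik (0.74), Lrrc58 (0.72) and Slc35f1 (0.70) for Jag1 and Raly (0.65), Cotl1 (0.64) and Arhgef28 (0.64) for Lfng. Without the day 4 p3 group Lfng and Jag2 had the least alike neighbours, for Lfng Raly (0.71), Suv39h2 (0.67) and H2bc14 (0.67). Jag1 then had Fmr1 (0.78), Ablim1 (0.76) and 9530082P21Rik (0.74). Among the members themselves, over the 24 groups without the day 4 p3 library, Dll4 ran most with Mfng (0.79) and Dll3 (0.77), Dll3 with Notch1 (0.77), and Jag1 most against Notch1 (-0.64). Dll1 and Notch2 also ran against each other (-0.66). These too are descriptions over group means that share days and cell types.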

How the data were processed

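Libraries were made from sorted, fixed cells with a full-length cDNA kit. The authors aligned reads to mm10 with ERCC spike-ins by STAR within nf-core rnaseq, counted genes with featureCounts ignoring duplicates, and removed libraries that failed quality control. The deposited signal values are read counts divided by 1 size factor per library, and 100% of the 834400 values above 0 were whole reads once that step was undone (tolerance 1e-06 reads). The authors' deposited annotation gave positions and exon lengths. Whether strand was used and the settings of the size factors are not given in the sources used here.

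Genes with a mean of at least 10 (13964 of 25239) were tested with limma 3.58.1 (R 4.3.3), with a trend on log2(value + 1) and a pseudocount of 1, over all 65 libraries in 25 group means (40 residual degrees of freedom). A comparison averages its groups with equal weight. Calls needed a Benjamini-Hochberg adjusted p below 0.01 over all tested genes and over 2-fold. The test of cell type by day is an F test called on adjusted p alone. Replicates are independent differentiations, so p-values measure the spread between cultures of 1 cell line. The paper sorted different types from the same dish, so libraries of different types at 1 day and SAG concentration may share a culture. The main fit treated them as independent. Count tests with edgeR 4.0.16 and DESeq2 1.42.0 on the recovered reads, other pseudocounts, filters and scalings, single days, shared SAG concentrations and each library left out were alternatives. Chosen after seeing the data were the number of genes detected as a covariate and the likeness without the lone day 4 p3 group. The limma fit was tested on simulated data. The members and gene lists were chosen with earlier results of these data known. Members were named by role, and pathway genes where called. Markers of endoderm, pluripotent and feeder cells were also listed. Some genes of the marker lists are not reported here and were left out of their counts and sums.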

Additional observations from a re-analysis of the deposited data

Results flagged for a closer look

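The change from day 4 to days 5 and 6 differed between the 4 cell types for 3 members in limma's F test of that difference: Dll1 (adjusted p = 9.66e-09), Dll3 (adjusted p = 3.6e-05) and Jag2 (adjusted p = 0.0066). All 3 were at 0 in the lone day 4 library of p3 cells from 100 nM SAG, and without it 0 of the 10 members passed. With the number of genes detected as a covariate Dll1 and Dll3 still passed and Jag2 did not (adjusted p = 0.0108). The part of that library's few detected genes in these results was not tested beyond these values. Groups held at most 3 libraries, too few to look for single libraries far from the rest of their group.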

How the results depend on the processing

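Of 2038 recomputed values for the 54 member differences with an unadjusted p below 0.05, 1965 kept their direction and side of the threshold, 38 fell below it, 33 rose past it and 2 turned sign. Those that turned were Jag2 from day 4 to day 5, 0.86 with all libraries and -0.15 to 1.04 with single libraries left out, the lowest without the day 4 100 nM p3 replicate 3, and Jag1 between pMN and p2, which was 0.28 at the shared SAG concentration. The number of members called from NMPs to day 4 was 1, and 2 with quantile normalisation, with the compared groups alone, with edgeR or with DESeq2, and 3 with array weights. From day 5 to day 6 it was 1, and 2 with a pseudocount of 10, with the compared groups alone or with DESeq2. Between p3 and pMN it was 3, then 1 with the compared groups alone, day 5 alone or day 6 alone, 2 with edgeR and 4 with quantile normalisation. Between p3 and p2 it was 2, then 0 with day 5 alone and 1 at the shared SAG concentration. Between p3 and p0-1 it was 1, then 0 with day 5 alone and 2 with DESeq2, and between pMN and p0-1 it was 3 and then 5 with DESeq2. Between p2 and p0-1 it was 2, then 1 with no filter, array weights, the compared groups alone, day 6 alone or edgeR, 0 with day 5 alone or the shared SAG concentration, 4 with DESeq2, and 1 to 3 with single libraries left out. In p2 at 100 against 10 nM it was 0, and 1 with DESeq2. For cell type by day it was 3, then 1 with a pseudocount of 10 or quantile normalisation and 0 to 3 with single libraries left out. On day 5 alone 34, 32, 88 and 21 of all 13964 genes were called between p3 and pMN, p3 and p2, p3 and p0-1 and p2 and p0-1, and on day 6 alone 35 between p3 and pMN and 14 between p2 and p0-1. Single days, shared concentrations and the compared groups alone use fewer libraries. For the other settings the cause was not tested.

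Same-numbered replicates of different groups did not deviate together (median correlation 0.019 over 408 pairs, against -0.0102 over 816 pairs of different numbers), so the numbers were not taken as pairing. This check pooled all days and concentrations, so it cannot show whether types sorted from the same dish deviate together. With the replicate block 3 members were called between p2 and p0-1 in place of 2, Jag1 being gained (-1.39, adjusted p = 0.000874, in a range from 3.71e-05 to 1 over all alternatives), and it changed no other member's call. Over the whole table DESeq2 called more genes than limma, 2321 against 601 from day 4 to day 5, 784 against 97 between p3 and pMN, and 587 against 15 between pMN and p2, where edgeR called 619, 51 and 5. Quantile normalisation moved the median of all genes by 0.29 from NMPs to day 4, 0.15 between the p2 concentrations and -0.38 between the p3 concentrations. The low libraries of Dll4 and Lfng held few reads, and the part of sequencing depth in this was not tested.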

Other observations

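The summed level of Pou5f1, Nanog, Zfp42 and Esrrb was 781 to 1511 normalised counts in the NMP libraries, and Pou5f1 averaged 817 there against 14.8 on day 4. Cldn6, listed as an endoderm marker, averaged 3271 in NMPs while Sox17 had 0 reads in all 3 NMP libraries. Summed mesoderm markers were 179 to 224 in NMPs and at most 218 on day 4, and summed fibroblast (feeder) markers reached at most 282 in NMPs and 779 on day 4. Col3a1, on the fibroblast list, averaged 6.61 on day 5 and 86.4 on day 6 and was called higher (log2 change 3.71 ± 0.77 SE, adjusted p = 0.00173, limma). Foxa1, also on the endoderm list and known from the floor plate, was higher in p3 than in the 3 other types on days 5 and 6.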
